A study of Mus musculus with 12 samples.

Results

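The SLC25 family is a family of carrier proteins, most of them in the inner mitochondrial membrane. Its genes were taken here as all genes whose symbol starts with Slc25a, without Slc25a20, that had at least 10 counts summed over the 12 libraries. This gave 39 members, all protein coding, of 51911 features in the deposited count tables. In all, 48 genes of that name were listed: 8 had fewer than 10 counts (Slc25a18, Slc25a21, Slc25a31, Slc25a41, Slc25a43, Slc25a48, Slc25a54 and the pseudogene Slc25a5-ps), and Slc25a20 was left out by name.

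The libraries were made from total RNA of mouse hearts after removal of cytoplasmic ribosomal RNA. PTCD1, the protein whose gene is knocked out, belongs to the pentatricopeptide repeat proteins of mitochondria, which bind RNA. The 4 groups, of 3 libraries each, were wild-type (WT) hearts and PTCD1 knockout (KO) hearts, with RNA left untreated or treated with CMC, a carbodiimide that binds pseudouridine in isolated RNA. The labels do not state what drives the deletion, the age of the mice or how many mice went into a library. Nothing in the labels says that the 3 libraries of a group came from separate animals, so p-values measure the spread between these libraries, which may be technical.

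As background, carriers of this family move metabolites through a membrane that small charged molecules cannot otherwise cross. Each is folded from repeated modules around a central site that opens to one side and then to the other, so that many of them exchange one substrate for another. In heart muscle the ADP/ATP carrier and the phosphate carrier supply ATP synthase, while the aspartate/glutamate and oxoglutarate/malate carriers form the malate-aspartate shuttle that brings reducing equivalents from the cytosol into mitochondria.

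Total depth was 10389398 to 12462093 counts per library, of which 2683284 to 3187748 fell on nuclear genes and 12576 to 18644 on the family. Values are given as counts per 1000000 nuclear counts after TMM scaling, called scaled counts, and levels of different genes are compared only per kilobase of the exon length in the count tables. Ptcd1 itself had 17 to 28 counts in the KO libraries and 71 to 103 in the WT libraries. Replicate 3 of the CMC-treated WT group stood apart from its group: the chi-square per degree of freedom of its counts against the other two was up to 2.43, against 1.12 to 1.39 for all other pairs. The 6 cardiomyocyte markers (Myh6, Actc1, Tnnt2, Tnni3, Myl2 and Ryr2) were each lower in KO than in WT hearts, and their summed level was 69313 to 71796 scaled counts in untreated WT and 33192 to 33303 in untreated KO libraries. Of the other lists, in untreated hearts, 4 of 5 tested erythroid markers, 4 of 6 endothelial, 3 of 5 smooth muscle and 3 of 4 adipocyte markers fell and 1 endothelial marker rose, while 3 of 6 fibroblast markers rose and 2 fell, and 1 of 5 macrophage markers rose. By the same test, at an edgeR adjusted p of 0.05, 29.1% of all nuclear genes tested rose and 28.7% fell in untreated hearts. No marker of these lists was at 0 over a group. In bulk heart RNA, fewer cells of a type and less RNA per cell cannot be told apart, and the part of the marker changes in the carrier values was not tested.

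The promoter stretches below are shown because these 4 members moved most among the better covered ones: Slc25a5 and Slc25a39 upward, Slc25a42 and Slc25a34 downward. Each is written 5′ to 3′ on the gene's strand, from RefSeq on GRCm38.p6, and lies within the 150 bases before the listed start, with bases in exons of GENCODE M21 left out. Capitals mark GC boxes (GGGCGG) and CCAAT boxes on either strand, so that CCGCCC and ATTGG are also in capitals. The stretch of Slc25a39 lies inside the annotated gene, before a start listed within it.
Slc25a5, chrX:36795447-36795596, plus strand: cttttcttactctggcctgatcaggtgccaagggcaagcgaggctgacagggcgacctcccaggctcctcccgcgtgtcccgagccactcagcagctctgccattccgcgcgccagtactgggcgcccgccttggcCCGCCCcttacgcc
Slc25a39, chr11:102407545-102407667, minus strand: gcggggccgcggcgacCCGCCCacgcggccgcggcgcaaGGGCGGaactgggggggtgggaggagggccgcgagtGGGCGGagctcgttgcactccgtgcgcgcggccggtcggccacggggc
Slc25a42, chr8:70212306-70212431, minus strand: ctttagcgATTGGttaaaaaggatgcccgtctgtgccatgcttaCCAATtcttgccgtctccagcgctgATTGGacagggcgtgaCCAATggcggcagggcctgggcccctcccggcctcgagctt
Slc25a34, chr4:141623835-141623984, minus strand: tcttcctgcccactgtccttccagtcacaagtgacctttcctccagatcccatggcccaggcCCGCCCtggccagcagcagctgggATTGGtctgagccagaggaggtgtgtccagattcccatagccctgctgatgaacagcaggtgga

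A start was listed for 29 of the 39 members. In the 250 bases before a start, on either strand, GGGCGG was found in 29 of the 38 listed promoters of these members and CCAAT in 20, while 32.7% and 33.8% of the 32851 promoters in the table held them. Promoters of a gene with several starts can share bases, and by gene the matches belonged to 22 and 17 of the 29 members. TATAAA was in none of the members' windows and in 12.4% of all promoters. The elements TGATGNAA, TNAAGGTCA and CCGGAAGT were in none of the members' windows, against 3.45%, 1.14% and 2.88% of all promoters, and the NRF1 element was found for Slc25a3 alone, against 3.74%. The marked matches do not overlap each other, and a match or its absence is a description of letters in this window. Within the printed stretches, the rising Slc25a39 held 3 GC boxes and the falling Slc25a42 4 CCAAT boxes. The stretch of Slc25a39 ends 27 bases before its listed start, so GC boxes at -31 and -10 from that start are not marked. These counts therefore depend on where a stretch was cut. Slc25a5 and Slc25a34, which moved in opposite directions, each held 1 GC box.

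In untreated hearts, 7 of the 37 members that could be tested rose in KO against WT and 14 fell, so that 21 members, or 56.8%, passed the edgeR quasi-likelihood test at an adjusted p of 0.05. Over all 12195 nuclear genes tested, 57.8% passed, 29.1% upward and 28.7% downward, so the share of carriers that changed was close to that of all genes. The median log2 fold change was -0.22 over the tested carriers and -0.0035 over all genes, and the median size of change was 0.50 against 0.41. WT and KO libraries did not overlap for 21 carriers, and 61.3% of all genes had groups that did not overlap. By the same test 17 members passed with a log2 change of at least 0.5 in size, 5 upward and 12 downward, as did 39.4% of all genes. Slc25a2 and Slc25a14 had too few counts to be tested. The changes included a rise of the ADP/ATP carrier gene Slc25a5 beside a fall of Slc25a4, rises of the glutathione carrier gene Slc25a39 and of Slc25a44, and falls of the coenzyme A carrier gene Slc25a42, the unassigned Slc25a34 and the malate-aspartate shuttle carriers.

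**Figure D1:**
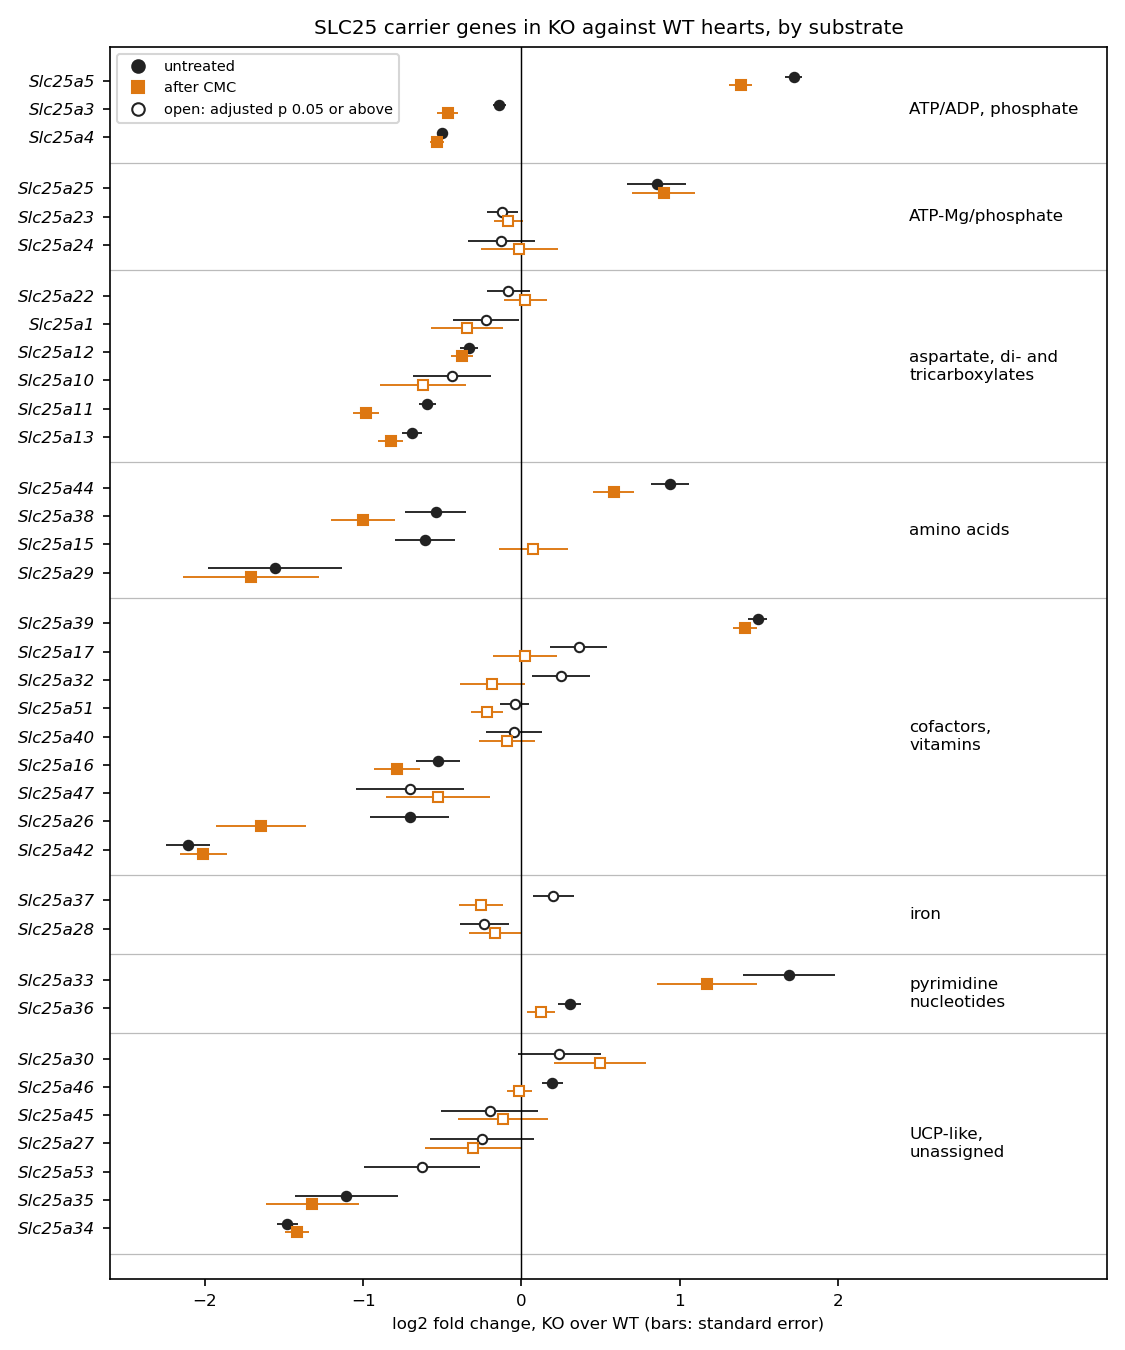
Log2 fold change of KO over WT for each member reported (x axis), untreated (circles) and after CMC (squares), grouped by substrate; bars are standard errors and open symbols did not pass an adjusted p of 0.05. Slc25a5, Slc25a33 and Slc25a39 lie farthest to the right and Slc25a42, Slc25a29 and Slc25a34 farthest to the left in untreated hearts.

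All 3 members for adenine nucleotides and phosphate changed, 1 upward and 2 downward, where 57.8% of all genes passed either way in untreated hearts. Slc25a4 (chr8:46206797-46211284, minus strand, mm10) encodes the ADP/ATP carrier that predominates in heart and skeletal muscle. It stood at 3817, 3691 and 3878 scaled counts in untreated WT libraries and at 2624, 2775 and 2637 in untreated KO libraries. After CMC it was 3555, 3587 and 3842 in WT and 2597, 2528 and 2505 in KO. Every KO library was below every WT library. Slc25a4 fell by 0.50 on the log2 scale (SE 0.03, 1.41-fold lower; edgeR adjusted p = 2.92e-52) untreated and by 0.53 (SE 0.04; edgeR adjusted p = 5.68e-12) after CMC.

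Slc25a5 (chrX:36795651-36798807, plus strand) encodes the ADP/ATP carrier of proliferating and many other cells. In WT libraries it was 113, 117 and 114 scaled counts untreated and 103, 113 and 94.8 after CMC. In KO libraries it was 372, 366 and 396 untreated and 277, 264 and 274 after CMC. The KO libraries were thus all above the WT libraries, and those treated with CMC lay between the WT and the untreated KO libraries. The rise was 3.29-fold untreated (log2 1.72, SE 0.05; edgeR adjusted p = 1.06e-90) and 2.61-fold after CMC (log2 1.39, SE 0.07; edgeR adjusted p = 9.26e-17). Near-identical copies of Slc25a5 elsewhere in the genome, 2 in number, held 219 counts in all, against 7907 for Slc25a5.

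Slc25a3 encodes the phosphate carrier, which also brings copper into the matrix. It stood at 453, 416 and 455 scaled counts in untreated WT and at 400, 403 and 398 in untreated KO libraries. In CMC-treated libraries it was 527, 541 and 453 in WT and 379, 343 and 385 in KO. The groups did not overlap in either setting, though the untreated gap between the lowest WT and the highest KO library was small. Slc25a3 fell by 0.14 on the log2 scale (SE 0.04; edgeR adjusted p = 0.00178) untreated and by 0.47 (SE 0.06; edgeR adjusted p = 2.48e-07) after CMC. With scaling by nuclear library size alone, which moves the median log2 fold change of all genes to 0.115, its untreated value was -0.0198 and did not pass (edgeR adjusted p = 0.694).

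Of the 3 calcium-regulated carriers that exchange ATP-Mg for phosphate and so set the adenine nucleotide content of the matrix, 1 rose. The share of all genes that rose was 29.1% untreated. Slc25a25 was 9.02, 10.6 and 11.8 scaled counts in untreated WT and 20.6, 18 and 18.1 in untreated KO libraries. With CMC the values were 7.4, 10.8 and 9.24 in WT and 15.3, 18.2 and 18.3 in KO, again with no overlap. The rise was 1.81-fold (log2 0.86, SE 0.19; edgeR adjusted p = 2.22e-05) untreated and 1.86-fold (log2 0.90; edgeR adjusted p = 0.000353) after CMC. Slc25a25 shares 379 exonic bases with the antisense gene Naif1, whose log2 fold change was 0.52 untreated; the labels do not state whether counting used the strand, so reads of such pairs cannot be told apart. Slc25a23, the most abundant of the 3 in counts, and Slc25a24 did not pass, at log2 -0.12 and -0.13 untreated.

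**Figure D2:**
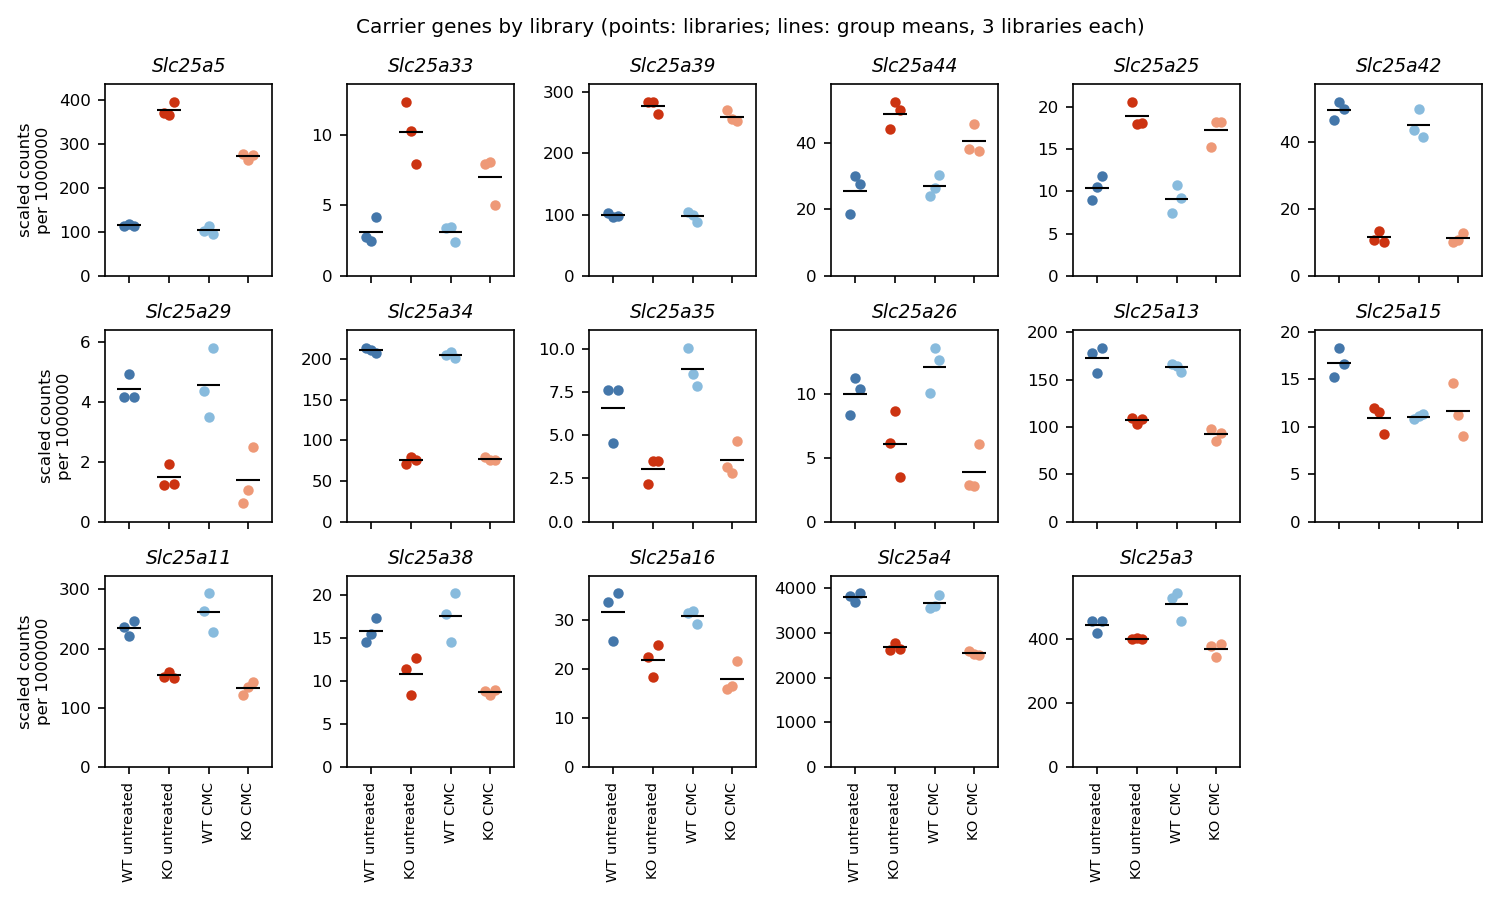
Scaled counts per 1000000 (y axes, from 0) of the members reported here that passed with a change of at least 0.5 in log2 in untreated hearts and of Slc25a3, in the 4 groups; points are libraries and lines group means. Slc25a5, Slc25a39 and Slc25a44 are higher in every KO library, and Slc25a42, Slc25a34, Slc25a13 and Slc25a4 lower, than in any WT library.

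The carriers of aspartate, glutamate, dicarboxylates and citrate held 3 members that fell and none that rose, of 6 tested. Over all genes, 28.7% fell and 29.1% rose in untreated hearts. Slc25a11, the oxoglutarate/malate carrier gene, was 237, 221 and 246 scaled counts in untreated WT and 153, 162 and 151 in untreated KO libraries. The CMC-treated libraries held 264, 293 and 228 in WT and 122, 135 and 144 in KO. Both KO groups were wholly below the WT groups. Slc25a11 fell by 0.59 on the log2 scale (SE 0.05; edgeR adjusted p = 8.33e-22) untreated and by 0.98 (SE 0.08; edgeR adjusted p = 6.82e-12) after CMC. As background to its counts, Slc25a11 shares 189 exonic bases with the antisense gene Rnf167, at log2 -0.32 untreated.

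The aspartate/glutamate carriers Slc25a12 (aralar) and Slc25a13 (citrin) also fell, the second more than the first. Slc25a13 was 179, 157 and 184 scaled counts in untreated WT and 110, 103 and 109 in untreated KO libraries. After CMC the values were 167, 164 and 158 in WT and 97.9, 84.8 and 94 in KO, with no overlap in either setting. Slc25a13 fell by 0.69 on the log2 scale (SE 0.06; edgeR adjusted p = 7.46e-22) untreated and by 0.83 (edgeR adjusted p = 1.44e-10) after CMC. Slc25a12 fell by 0.33 (SE 0.06; edgeR adjusted p = 3.6e-08) untreated and by 0.38 (edgeR adjusted p = 4.9e-05) after CMC. The citrate carrier gene Slc25a1, the dicarboxylate carrier gene Slc25a10 and the glutamate carrier gene Slc25a22 did not pass, at log2 -0.22, -0.44 and -0.08 untreated. Slc25a10 passed without untreated WT replicate 1 (log2 -0.66; edgeR adjusted p = 0.0264) and, after CMC, without CMC-treated WT replicate 3 (log2 -0.86; edgeR adjusted p = 0.00645) and with all 12 libraries in 1 fit (log2 -0.62; 0.0459).

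Among the amino acid carriers, 3 of 4 tested members fell and 1 rose in untreated hearts, against 28.7% and 29.1% of all genes. Slc25a44, a carrier of branched-chain amino acids, was 18.7, 30 and 27.7 scaled counts in untreated WT and 44, 52.3 and 49.9 in untreated KO libraries. After CMC it was 23.9, 26.3 and 30.5 in WT and 38.1, 45.6 and 37.7 in KO. It was higher in every KO library than in any WT library. The rise was 1.92-fold (log2 0.94, SE 0.12; edgeR adjusted p = 8.06e-13) untreated and smaller after CMC (log2 0.58, SE 0.13; edgeR adjusted p = 0.000276).

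Slc25a29, which carries basic amino acids, had 105 counts in all 12 libraries together. Its values were 4.16, 4.93 and 4.16 scaled counts in untreated WT and 1.23, 1.93 and 1.27 in untreated KO libraries. After CMC they were 4.37, 3.49 and 5.82 in WT and 0.636, 1.05 and 2.51 in KO. The groups did not overlap, but the counting error of so few reads is large. Slc25a29 fell by 1.56 on the log2 scale (SE 0.42; edgeR adjusted p = 0.000724) untreated and by 1.71 (SE 0.43; edgeR adjusted p = 0.0012) after CMC.

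Slc25a15, the ornithine carrier of the urea cycle and of arginine metabolism, was 15.3, 18.3 and 16.6 scaled counts in untreated WT and 12, 11.6 and 9.22 in untreated KO libraries. In CMC-treated libraries it was 10.8, 11.1 and 11.3 in WT and 14.6, 11.2 and 8.97 in KO. The untreated groups were apart, while the CMC-treated groups overlapped and the KO values spread to both sides of WT. CMC-treated WT libraries were all below untreated WT libraries, at log2 -0.60, which did not pass (edgeR adjusted p = 0.0825). In KO the log2 value of CMC against untreated was 0.09. Slc25a15 fell by 0.61 on the log2 scale (SE 0.19; edgeR adjusted p = 0.00342) untreated and was at log2 0.08 after CMC (edgeR adjusted p = 0.786). The difference between these effects was 0.69 and did not pass its own test (edgeR adjusted p = 0.248).

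Slc25a38, the glycine carrier that supplies heme synthesis, was 14.6, 15.5 and 17.3 scaled counts in untreated WT and 11.4, 8.35 and 12.7 in untreated KO libraries. With CMC the values were 17.8, 14.6 and 20.2 in WT and 8.9, 8.41 and 8.97 in KO. KO libraries were below WT libraries in both settings, with the wider gap after CMC. Slc25a38 fell by 0.54 on the log2 scale (SE 0.19; edgeR adjusted p = 0.0114) untreated and was 2-fold lower after CMC (SE of the log2 value 0.20; edgeR adjusted p = 0.000102). Glycine import by this carrier is best known from erythroid cells. The summed level of the erythroid markers was 484 to 674 scaled counts in untreated WT and 419 to 443 in untreated KO libraries, and 467 to 562 and 317 to 348 after CMC, and its part in the result was not tested. The untreated Slc25a38 call was lost without untreated KO replicate 2 (edgeR adjusted p = 0.107), without untreated WT replicate 3 (0.0586) and with DESeq2 (0.0885). Slc25a2, the second ornithine carrier gene, had 16 counts over the 12 libraries and was not tested.

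The 10 carriers of cofactors and vitamins held the most strongly lowered member and 1 of the largest rises. Slc25a39 (chr11:102402985-102407946, minus strand) encodes a carrier needed for mitochondrial glutathione import. It was 103, 96.2 and 97.4 scaled counts in untreated WT and 284, 283 and 265 in untreated KO libraries. The CMC-treated libraries held 105, 99.2 and 88 in WT and 270, 256 and 254 in KO. The KO libraries formed a narrow band well above all WT libraries. The rise was 2.81-fold (log2 1.49, SE 0.06; edgeR adjusted p = 8.23e-71) untreated and 2.66-fold (log2 1.41, SE 0.07; edgeR adjusted p = 9.37e-17) after CMC.

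Slc25a42 (chr8:70184340-70212305, minus strand) encodes the carrier that brings coenzyme A into the matrix. It was 46.8, 52.1 and 49.9 scaled counts in untreated WT and 10.8, 13.5 and 10.2 in untreated KO libraries. After CMC it was 43.7, 50.1 and 41.8 in WT and 10.2, 10.9 and 12.9 in KO. Every KO library was far below every WT library. Slc25a42 fell by 2.11 on the log2 scale (SE 0.14, 4.31-fold lower; edgeR adjusted p = 2.39e-35) untreated, and the log2 value after CMC was -2.01 (SE 0.15; edgeR adjusted p = 5.21e-13). Slc25a16, which has also been linked to coenzyme A, was 33.7, 25.7 and 35.3 in untreated WT and 22.5, 18.3 and 24.8 in untreated KO libraries. In CMC-treated libraries it was 31.3, 31.7 and 29.1 in WT and 15.9, 16.5 and 21.5 in KO, with no overlap in either setting. Slc25a16 fell by 0.53 (SE 0.14; edgeR adjusted p = 0.000408) untreated and by 0.79 (SE 0.15; edgeR adjusted p = 3.8e-05) after CMC.

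Slc25a26, the S-adenosylmethionine carrier gene, was 8.33, 11.3 and 10.4 in untreated WT and 6.16, 8.67 and 3.5 in untreated KO libraries. The CMC-treated libraries held 10.1, 13.6 and 12.7 in WT and 2.86, 2.8 and 6.1 in KO. The untreated groups overlapped in 1 KO library, while the CMC-treated groups were apart. Slc25a26 fell by 0.71 on the log2 scale (SE 0.25; edgeR adjusted p = 0.0107) untreated and by 1.65 (SE 0.28; edgeR adjusted p = 1.16e-05) after CMC. The untreated value was -0.43 without untreated KO replicate 3 (edgeR adjusted p = 0.165) and -0.62 without untreated WT replicate 2 (edgeR adjusted p = 0.0641), and DESeq2 gave an adjusted p of 0.097. Slc25a26 shares 144 exonic bases with the antisense gene Lrig1, which was itself at log2 -1.02 untreated.

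The other 5 cofactor carriers did not pass in either setting, where 57.8% of all genes passed untreated and 54.0% after CMC. Slc25a17, a peroxisomal carrier of cofactors, was at log2 0.36 untreated and 0.02 after CMC, and it passed without untreated KO replicate 1 (log2 0.53; edgeR adjusted p = 0.0131). Slc25a32, linked to folate and FAD, was at 0.25 and -0.18, and Slc25a40, the paralog of Slc25a39, at -0.05 and -0.09. Slc25a51, the NAD carrier gene, was at -0.04 and -0.22 and passed after CMC without CMC-treated WT replicate 3 (log2 -0.26; edgeR adjusted p = 0.0319). Slc25a47, which lies beside Slc25a29 on chromosome 12, was at -0.70 and -0.53. Slc25a47 passed in untreated hearts without untreated WT replicate 2 (log2 -1.04; edgeR adjusted p = 0.00936) and without untreated KO replicate 2 (log2 -0.91; edgeR adjusted p = 0.0426).

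The iron carriers, mitoferrins 1 (Slc25a37) and 2 (Slc25a28), did not pass. Slc25a37 was 25.7, 26.4 and 25.6 scaled counts in untreated WT and 31.7, 29.2 and 28.3 in untreated KO libraries, against 24.9, 28.2 and 26.7 in WT and 21.9, 23.1 and 22.2 in KO after CMC. KO libraries were thus above WT untreated and below WT after CMC, with log2 values of 0.20 and -0.25 (edgeR adjusted p = 0.184 and 0.124). Mitoferrin 1 is the form of erythroid cells, whose markers were lower in KO as given for Slc25a38. Under scaling by nuclear library size alone the untreated value of Slc25a37 passed (log2 0.32; edgeR adjusted p = 0.0284). Slc25a28 was at log2 -0.23 untreated and -0.16 after CMC, and passed without untreated KO replicate 1 (log2 -0.40; edgeR adjusted p = 0.0493).

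Both pyrimidine nucleotide carriers, which serve the supply of precursors for mitochondrial DNA and RNA, rose in untreated hearts, as did 29.1% of all genes. Slc25a33 (chr4:149744036-149774277, minus strand) was 2.78, 2.47 and 4.16 scaled counts in untreated WT and 12.3, 10.3 and 7.95 in untreated KO libraries. After CMC it was 3.36, 3.49 and 2.4 in WT and 7.95, 8.06 and 5.02 in KO. Each KO library was above each WT library at these low levels. The rise was 3.23-fold (log2 1.69, SE 0.29; edgeR adjusted p = 9.35e-08) untreated and 2.25-fold (log2 1.17, SE 0.32; edgeR adjusted p = 0.00235) after CMC. Slc25a36 was 86, 97.2 and 92.5 in untreated WT and 101, 124 and 116 in untreated KO libraries, a rise of 1.24-fold (log2 0.31, SE 0.07; edgeR adjusted p = 8.94e-05). After CMC its groups overlapped, at 79.4, 71.3 and 83.5 in WT and 89, 83.8 and 82.8 in KO, and it did not pass (log2 0.12; edgeR adjusted p = 0.243).

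In the group of uncoupling-protein-like and unassigned carriers, 2 of 7 tested members fell and 1 rose in untreated hearts. Of all genes, 28.7% and 29.1% did so. Slc25a34 (chr4:141618824-141623821, minus strand), a carrier with no settled substrate, was 214, 211 and 208 scaled counts in untreated WT and 71.1, 80 and 76 in untreated KO libraries. In CMC-treated libraries it was 205, 209 and 202 in WT and 79.8, 75.7 and 76.4 in KO. It was among the most evenly measured members, and the genotypes were far apart. Slc25a34 fell by 1.48 on the log2 scale (SE 0.07, 2.79-fold lower; edgeR adjusted p = 7.15e-62) untreated and by 1.42 (SE 0.08; edgeR adjusted p = 1.21e-16) after CMC.

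Slc25a35, a further carrier with no settled substrate, was 7.63, 4.58 and 7.62 scaled counts in untreated WT and 2.16, 3.53 and 3.5 in untreated KO libraries. With CMC the values were 10.1, 8.56 and 7.87 in WT and 3.18, 2.8 and 4.66 in KO, with the genotypes apart in both settings. Slc25a35 fell by 1.11 on the log2 scale (SE 0.32; edgeR adjusted p = 0.00184) untreated and by 1.32 (SE 0.29; edgeR adjusted p = 0.000304) after CMC. It shares 1151 exonic bases with the antisense gene Rangrf, which had 850 counts against its 197 and was at log2 0.53 untreated, so its counts are uncertain.

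Slc25a46, an outer membrane protein tied to mitochondrial shape, was 106, 110 and 113 scaled counts in untreated WT and 122, 133 and 120 in untreated KO libraries. This was a rise of 1.15-fold (log2 0.20, SE 0.07; edgeR adjusted p = 0.00804) with no overlap. The call was lost without untreated KO replicate 2 (edgeR adjusted p = 0.0752) and with DESeq2 (0.0774), and after CMC the log2 value was -0.01. Slc25a27, Slc25a30, Slc25a45 and Slc25a53 did not pass, at log2 -0.25, 0.24, -0.20 and -0.63 untreated. Slc25a53 passed without untreated KO replicate 1 (log2 -1.07; edgeR adjusted p = 0.0408), and after CMC it was not tested. Slc25a30 was at log2 0.50 after CMC and passed without CMC-treated WT replicate 1 (log2 0.88; edgeR adjusted p = 0.0289) and without CMC-treated KO replicate 2 (log2 0.72; edgeR adjusted p = 0.0499). Slc25a14 had 78 counts over the 12 libraries and was not tested.

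After CMC, 5 of 36 tested members rose in KO against WT and 13 fell, with 54.0% of all 12198 genes passing in this comparison, 27.2% upward and 26.8% downward. WT and KO libraries did not overlap for 21 members, as for 58.8% of all genes. Without CMC-treated WT replicate 3 the counts were 5 and 15. Of the 36 members tested in both settings, 18 passed in the same direction in both, 5 upward and 13 downward, as did 45.0% of all genes. The 3 members that passed in untreated hearts alone were Slc25a15, Slc25a36 and Slc25a46, none passed after CMC alone, and none passed in opposite directions. These comparisons share no libraries, but the labels do not state whether a CMC-treated and an untreated library with the same number came from the same heart, so they may not be independent.

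Compared per kilobase, 1 gene held most of the family's transcripts. In untreated WT hearts Slc25a4 stood at 1613 ± 40.5 scaled counts per kilobase (SD, n = 3). It was followed by Slc25a11 at 111, Slc25a3 at 79.5 and Slc25a34 at 79.2, and the libraries of the last 2 overlapped. This order and the shares below depend on the listed exon lengths, 2120 bases for Slc25a11 and 5550 for Slc25a3. Before division by length Slc25a3 was the higher of these 2, at 441 against 235 scaled counts. Next came Slc25a5 at 69.8, Slc25a13 at 45.6, Slc25a39 at 35.8, Slc25a12 at 28.2 and Slc25a46 at 25.0, with no overlap between neighbours from Slc25a34 to Slc25a12. In untreated KO hearts Slc25a4 was still first at 1138, but Slc25a5 followed at 230 and Slc25a39 at 101, ahead of Slc25a11 at 73.2 and Slc25a3 at 72.1.

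As a share of the family's summed level per kilobase, Slc25a4 made up 72.4% ± 0.221 (SD, n = 3) in untreated WT and 61.4% ± 0.765 in untreated KO libraries. Slc25a5 made up 3.14% ± 0.116 and 12.4% ± 0.671, and Slc25a39 1.61% ± 0.0550 and 5.43% ± 0.206. Slc25a34 went the other way, from 3.56% ± 0.108 to 1.53% ± 0.0652. After CMC the shares were 71.3% ± 2.20 and 63.9% ± 0.563 for Slc25a4, 2.88% ± 0.267 and 9.76% ± 0.144 for Slc25a5, and 1.62% ± 0.162 and 5.58% ± 0.109 for Slc25a39. WT and KO libraries did not overlap for any of these shares. The summed level of all members, not divided by length, was 5981 ± 123 scaled counts in untreated WT and 4924 ± 91.6 in untreated KO libraries. Without Slc25a4 the sums were 2185 ± 28.5 in untreated WT and 2246 ± 9.41 in untreated KO libraries. The lower family total in untreated KO libraries thus came with the lower Slc25a4, while rises and falls of other members were summed together. Slc25a5 went from a mean of 115 to 378 scaled counts and Slc25a34 from 211 to 75.7. After CMC the sums without Slc25a4 were 2232 ± 128 in WT and 1975 ± 43.5 in KO.

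**Figure D3:**
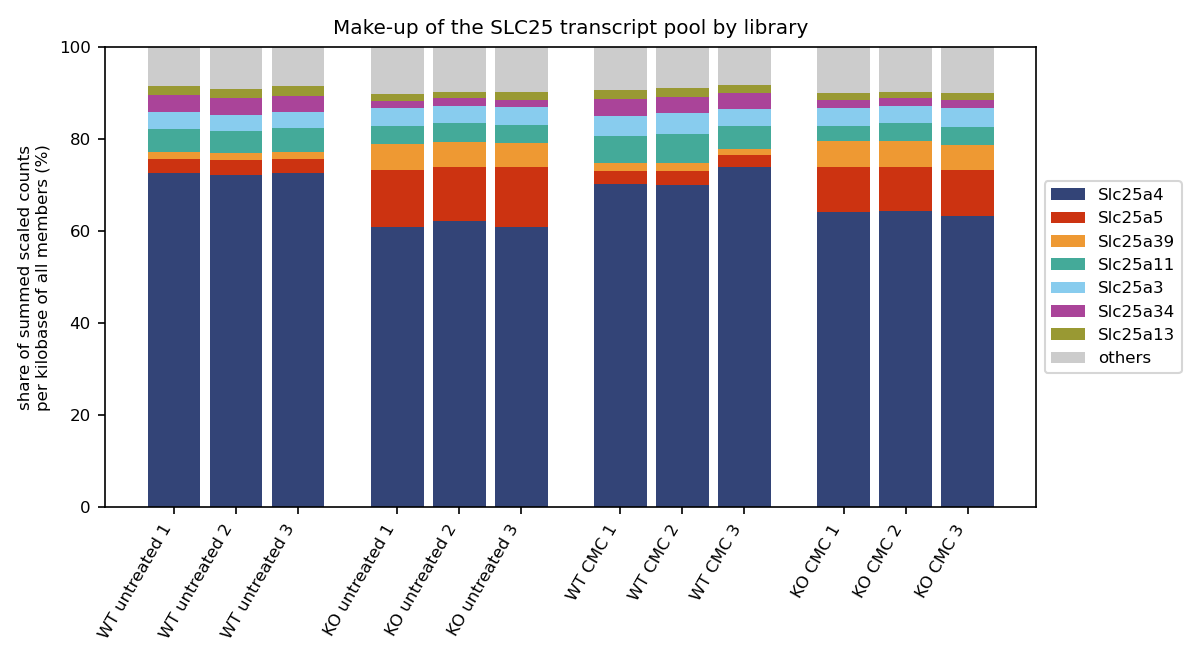
Share of each of 7 members and of all others in the family's summed scaled counts per kilobase (y axis, percent), as a stacked bar per library. The Slc25a4 part is 72.4% on average in untreated WT and 61.4% in untreated KO libraries, and the Slc25a5 and Slc25a39 parts are larger in all 6 KO libraries.

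Ratios of paralogs within a library need no scaling, and were computed for 5 of 6 pairs, since Slc25a18, the partner of Slc25a22, had 4 counts in all. The geometric mean ratio of Slc25a4 to Slc25a5 counts was 33.0 in untreated WT and 7.09 in untreated KO libraries, a difference of -2.22 in log2. After CMC the ratios were 35.5 and 9.37, a difference of -1.92. For Slc25a39 over Slc25a40 the differences were 1.53 and 1.49, and for Slc25a33 over Slc25a36 they were 1.41 and 1.04. The aspartate/glutamate carriers shifted less, with Slc25a12 over Slc25a13 higher in KO by 0.36 and 0.46. In each of these comparisons WT and KO libraries did not overlap, with a two-sided exact permutation p of 0.1 (0.111 after Benjamini-Hochberg adjustment over 10 tests), the smallest that 3 against 3 libraries allow, so none can pass 0.05. For the mitoferrins, Slc25a28 over Slc25a37 was lower in untreated KO by -0.46 with no overlap, while after CMC the difference was 0.09 and the libraries overlapped (two-sided exact permutation p = 0.8).

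**Figure D4:**
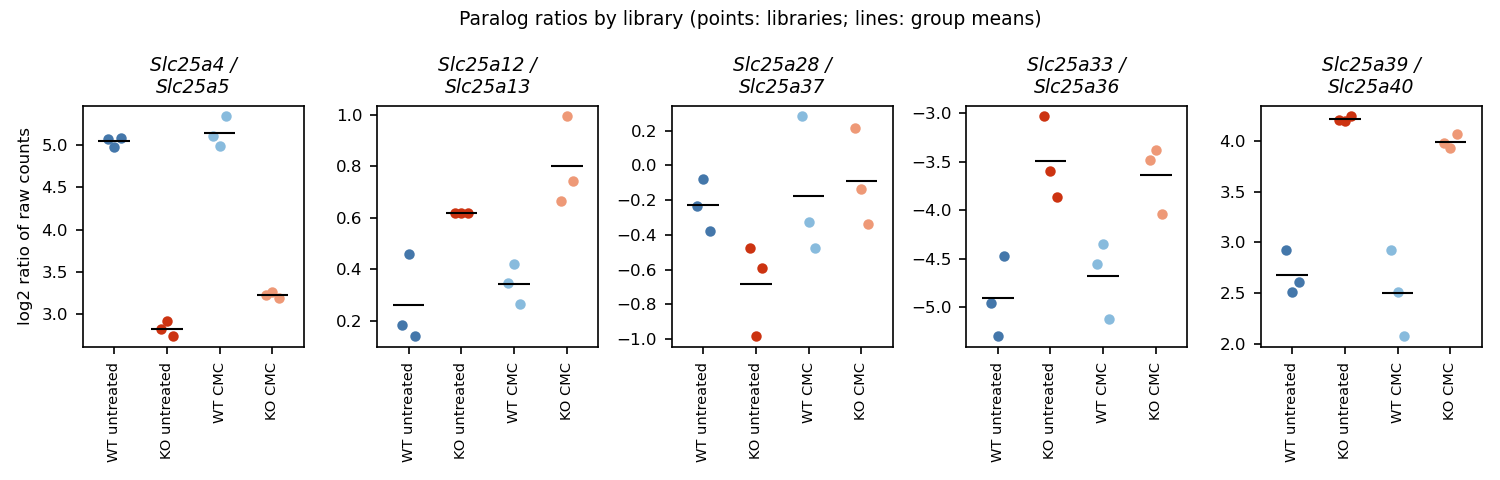
Log2 ratio of raw counts of paralog pairs (y axes) in the 4 groups; points are libraries and lines group means. The Slc25a4 to Slc25a5 ratio is lower and the Slc25a39 to Slc25a40 ratio higher in every KO library than in any WT library, while the Slc25a28 to Slc25a37 ratio overlaps after CMC.

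CMC acts on isolated RNA, and CMC-treated libraries were compared with untreated ones in each genotype. The labels do not state whether these libraries share hearts. Differences from the treatment, between hearts and between library preparations therefore cannot be told apart. For short, the difference is called the CMC effect. In WT, none of 36 tested members passed with edgeR or with DESeq2, while 5 had an unadjusted p under 0.05, 3 upward and 2 downward. Of all genes 2.23% passed with edgeR, 0.967% upward and 1.26% downward. Without CMC-treated WT replicate 3, 2 members passed upward and 2 downward. In KO, 1 of 35 tested members passed upward and 6 downward, with 12.1% of all genes passing, 6.77% upward and 5.36% downward. Slc25a23 was the riser (log2 0.29; edgeR adjusted p = 0.0289). With each KO library left out in turn, 0 to 1 members passed upward and 4 to 6 downward. The others were Slc25a5 (log2 -0.48; edgeR adjusted p = 3.04e-13), Slc25a36 (-0.42), Slc25a37 (-0.42), Slc25a46 (-0.26), Slc25a11 (-0.23) and Slc25a13 (-0.22). With DESeq2, none passed upward and 2 downward in KO.

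The difference between the CMC effects in KO and in WT was tested for 37 members in a fit of all 12 libraries. None passed upward (1 at an unadjusted p under 0.05) and 3 passed downward, where 1.08% and 0.391% of all genes did, or 1.47% in all. For Slc25a11 the CMC effect was 0.16 in WT and -0.23 in KO, a difference of -0.38 (SE 0.10; edgeR adjusted p = 0.027). For Slc25a3 the effects were 0.20 and -0.12, a difference of -0.32 (SE 0.08; edgeR adjusted p = 0.014). For Slc25a5 they were -0.15 and -0.48, a difference of -0.33 (SE 0.09; edgeR adjusted p = 0.0436). These calls hang on the libraries used: leaving out each of the 12 in turn, the call was lost 9 times for Slc25a11, 4 times for Slc25a3 and 11 times for Slc25a5, with adjusted p of up to 0.189, 0.0926 and 0.264. The Slc25a5 call was also lost with no filter on low counts (edgeR adjusted p = 0.0533).

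**Figure D5:**
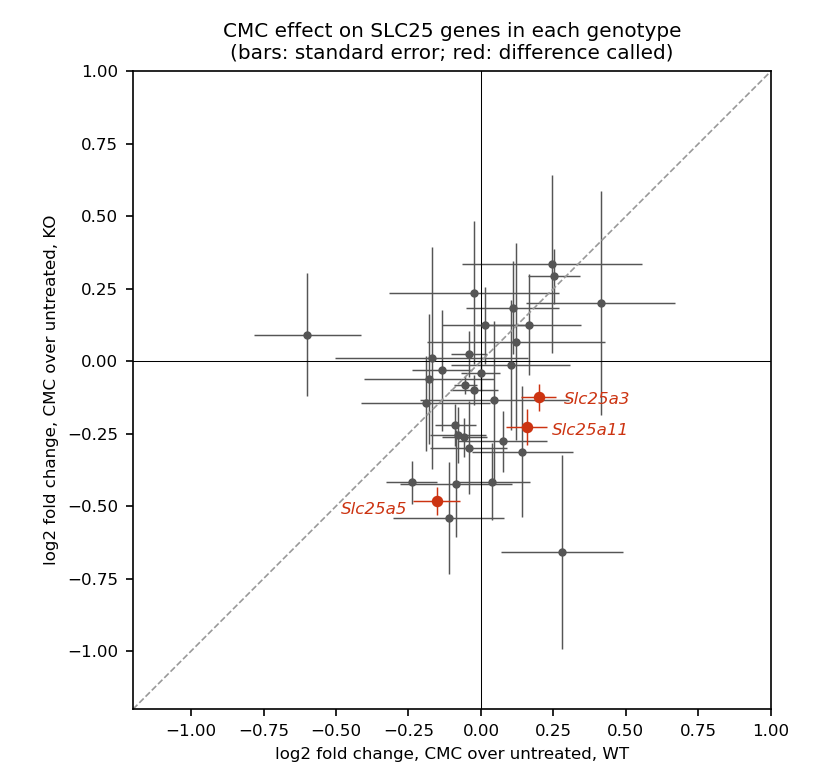
Log2 fold change of CMC-treated over untreated libraries in WT (x axis) and in KO (y axis) for each member reported that was tested in both; bars are standard errors and the dashed line marks equal effects. Slc25a3, Slc25a11 and Slc25a5, in red, lie below the line and passed the test of the difference.

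Other proteins of the same fold carry other names, and Ucp3, a muscle uncoupling protein, moved most among them. Ucp3 was 61.8, 53.9 and 53 scaled counts in untreated WT and 15.7, 20.2 and 17.8 in untreated KO libraries, with no overlap. It fell by 1.65 on the log2 scale (edgeR adjusted p = 5.67e-30) untreated and by 1.69 after CMC. Ucp1, the uncoupling protein of brown fat, was low and fell (2.23-fold lower; edgeR adjusted p = 6.15e-10), beside adipocyte markers whose summed level was 62.7 to 80.7 in untreated WT and 30.8 to 40.1 in untreated KO libraries. That list of 4 includes Ucp1 itself, and its part in the result was not tested. Ucp2, the widely expressed form, rose 1.60-fold (log2 0.67; edgeR adjusted p = 3.27e-12) untreated and 1.83-fold (log2 0.87) after CMC. Of the outer membrane members of this fold, Mtch2 rose by 0.16 in log2 untreated (edgeR adjusted p = 0.0189) and was at 0.05 after CMC, and Mtch1 did not pass.

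Carriers reach the inner membrane through the TIM22 route, and 5 of its 9 tested genes rose in untreated KO hearts while 2 fell, against 29.1% and 28.7% of all genes, with a median log2 of 0.37. The small chaperones of the intermembrane space were the largest: Timm8a1 (log2 1.57; edgeR adjusted p = 0.000184), Timm10 (1.17; 1.34e-22) and Timm9 (0.77; 2.15e-05). After CMC 3 of 8 tested genes of this route rose and 3 fell, against 27.2% and 26.8% of all genes, with a median log2 of -0.0061. Among 21 tested genes of other inner and outer membrane transport, 3 rose and 11 fell untreated, with a median of -0.22, and 5 rose and 10 fell after CMC. Of all genes, 57.8% passed either way untreated and 54.0% after CMC. The sideroflexins led this list, with Sfxn5 at -1.39 (edgeR adjusted p = 5.09e-06), Sfxn2 at -1.10 (0.00329) and the serine carrier Sfxn1 at 0.79 (8.53e-07).

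Of the 7 enzymes of the malate-aspartate and glycerol phosphate shuttles, 2 rose and 4 fell untreated, against 29.1% and 28.7% of all genes. Their median log2 was -0.14. Got1, the cytosolic aspartate aminotransferase, rose 2.02-fold (log2 1.01, SE 0.04; edgeR adjusted p = 9.58e-81), the opposite direction to the shuttle's carriers Slc25a11, Slc25a12 and Slc25a13. Gpd1l was at -0.58 (edgeR adjusted p = 3.74e-11) and Gpd1, the cytosolic glycerol-3-phosphate dehydrogenase, at 0.45 (3.3e-12). After CMC 2 of the 7 rose and 3 fell, against 27.2% and 26.8% of all genes.

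In the authors' deposited table of KO against WT in untreated hearts, all 39 members were listed and 38 had an adjusted p. In it, 6 were higher and 8 lower at 0.05. The fold changes had the same sign as here for 37 of 37 members, and the largest difference between the authors' deposited table and the values above was 0.0286 in log2. Both sets of values come from the same libraries. The calls differed for Slc25a3, Slc25a15, Slc25a16, Slc25a26, Slc25a35, Slc25a38 and Slc25a46. Each of these passed here and not in the authors' table, where their adjusted p ran from 0.0526 for Slc25a16 to 0.180 for Slc25a26.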

How the data were processed

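Raw counts of reads per gene were deposited as tables in featureCounts format, 1 for untreated and 1 for CMC-treated libraries, with exon lengths in another column. HISAT2 2.0.5, SAMtools 1.5 and featureCounts 1.5.1, beside DESeq2 1.16.1 and the build mm10, are named in the submitters' processing notes. The authors' deposited table lists a mean signal, a log2 fold change and p-values, raw and adjusted. GENCODE M21 on mm10 named 51596 of the 51911 features and left 315 unnamed.

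The 36 mitochondrial features were left out of library sizes and tests. Per comparison, low genes were removed by filterByExpr, TMM factors came from nuclear genes, and edgeR 4.0.16 (R 4.3.3) ran its quasi-likelihood test, with Benjamini-Hochberg adjustment over all genes tested and calls at 0.05. Standard errors are the size of the log2 fold change over the root of F. The 5 comparisons were KO against WT in each setting, CMC against untreated in each genotype, and the difference of the CMC effects. Alternatives were DESeq2 1.42.0, other scalings, no filter, a replicate block, a joint fit and leaving out each library.

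Library values are given for members that passed in untreated hearts with a log2 change of at least 0.5 in size and for Slc25a3 and some others, and from other lists for up to 3 passing genes with the largest changes. The members, lists and this rule were chosen with earlier results of these data known, and the promoter motifs after the values were seen. Near-identical copies, given for Slc25a5, share at least 95% identity over more than 150 bases (BLAST 2.17.0). Counting error limits the precision of low members. The values of 1 member are not reported here, though the counts of members include it.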

Additional observations from a re-analysis of the deposited data

Results flagged for a closer look

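The effect of CMC differed between KO and WT hearts for 3 members by the test of the difference itself, an interaction contrast over all 12 libraries in edgeR. The difference, KO minus WT, was -0.379 in log2 for Slc25a11, -0.319 for Slc25a3 and -0.326 for Slc25a5. Slc25a3 kept its call in 8 of 12 fits with 1 library left out. Slc25a11 kept it without untreated WT replicate 3, CMC-treated KO replicate 3 or CMC-treated WT replicate 3, and Slc25a5 without CMC-treated WT replicate 3. The lowest adjusted p in these fits was 5.57e-05 for Slc25a11, 4.14e-06 for Slc25a3 and 0.00198 for Slc25a5. With DESeq2 the adjusted p were 0.0437, 0.0245 and 0.0447. With no filter on low counts they were 0.00731, 0.00265 and 0.0533, so that Slc25a5 lost its call. CMC-treated WT replicate 3, which stood apart from its group, was in each of these differences, and the 3 calls were also made without it.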

How the results depend on the processing

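For KO against WT, the count of members that rose was 6 to 8 and that fell 13 to 16 in untreated hearts as each library was left out, and 5 to 6 and 13 to 15 after CMC. Scaling by nuclear library size alone, added after the data were seen, moved the median log2 of all genes to 0.115 and 0.069. It gave 9 higher and 12 lower members untreated and 6 and 13 after CMC. The shares of all genes that passed in the alternative fits of this section are not given, so these counts describe the members alone. With nuclear library size alone, Slc25a38 (log2 -0.42) lost its untreated call, Slc25a17 (0.48) gained one, and Slc25a36 (0.20) gained one after CMC.

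Values that crossed 0 all belonged to results without a call. With nuclear library size alone these were, untreated, Slc25a51 at 0.0781, Slc25a40 at 0.0719 and Slc25a22 at 0.0367, and after CMC Slc25a24 at 0.0659 and Slc25a46 at 0.0645. Without a filter on low counts, Slc25a24 was at 0.0143 and Slc25a46 at 0.0135 after CMC. With each library left out in turn, untreated values ran from -0.30 to 0.00417 for Slc25a24, -0.11 to 0.0453 for Slc25a51, -0.14 to 0.0187 for Slc25a40, -0.23 to 0.0785 for Slc25a22 and -0.53 to 0.204 for Slc25a45. After CMC they ran from -0.23 to 0.203 for Slc25a24, -0.22 to 0.0675 for Slc25a40, -0.0279 to 0.123 for Slc25a22, -0.127 to 0.235 for Slc25a15, -0.0740 to 0.163 for Slc25a17, -0.0236 to 0.0155 for Slc25a46, -0.31 to 0.0515 for Slc25a45 and -0.31 to 0.0403 for Slc25a28. The log2 ratio of Slc25a28 over Slc25a37 after CMC ran from -0.0661 to 0.314.

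For CMC against untreated in WT, 1 member passed upward with nuclear library size alone, with no filter and with all 12 libraries in 1 fit, and 0 to 2 passed upward and 0 to 2 downward with a library left out. In KO, DESeq2 gave 0 upward and 2 downward, and leaving out a library gave 0 to 1 upward. The difference of the CMC effects gave 0 to 3 downward calls as libraries were left out. The cause was not tested.

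Same-numbered libraries did not deviate together. Correlations were -0.048 to 0.0055 over all 4 comparisons of groups and -0.0198 to 0.0055 for CMC against untreated. The spread within most groups was close to counting error, so libraries from the same heart could also lack a correlation, and this check cannot decide on pairing. The labels do not state whether same-numbered CMC-treated and untreated libraries share a heart. With the replicate block, 7 members rose and 14 fell untreated, 5 and 14 after CMC, 0 and 0 for CMC in WT, 1 and 7 for CMC in KO, and 2 fell for the difference. With the block, Slc25a5 lost its call for the difference (edgeR adjusted p = 0.0617) and Slc25a10 gained one after CMC (0.0487).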
